A study of Homo sapiens with 9 samples.

Results

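The genes described here are 10 messages of protein folding in the endoplasmic reticulum (ER) and of the response that protects it, taken by name from the 17637 genes counted in the T-cell leukaemia line KOPTK1. They are the chaperones HSPA5, HSP90B1, CALR and CANX, the disulfide isomerase PDIA4, the co-chaperones DNAJB9, DNAJC3 and SDF2L1, the degradation factor HERPUD1 and the transcription factor XBP1. All 10 were found in the table and all 10 passed the filter on low counts. KOPTK1 was established from human T-cell acute lymphoblastic leukaemia, and its labels give a wild-type genotype in all groups. Poly(A) RNA was read in 9 libraries. The group shControl, with 3 libraries, received a lentiviral control hairpin, which the count table names for GFP. The group shDHX15, also 3 libraries, received a hairpin against the RNA helicase DHX15. The group shDHX15_MYC, again 3 libraries, received the DHX15 hairpin together with the coding region of MYC. One DHX15 hairpin (number 1 in the table) was used throughout, so an effect of that hairpin and an effect of less DHX15 cannot be told apart. Added MYC was not measured with the control hairpin. The labels give no time after transduction. They do not tell if the replicates came from separate cultures, so the p-values cover no more than the spread among these libraries, which may be technical. The comparisons asked how these messages stood after loss of DHX15, and how they stood when MYC was supplied as well.

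Proteins of the secretory pathway fold in the ER with the help of HSPA5 (BiP), an HSP70 that J-domain co-chaperones such as DNAJB9 and DNAJC3 direct to its clients, and of HSP90B1 (GRP94), the HSP90 of that compartment. CALR and CANX hold glycoproteins through their sugars, PDIA4 rearranges disulfide bonds, and HERPUD1 serves the removal of misfolded proteins. When unfolded proteins build up, the sensors ERN1 (IRE1), ATF6 and EIF2AK3 (PERK) are activated. ERN1 cuts the XBP1 message so that an active transcription factor is made, which with ATF6 raises chaperone genes through elements in their promoters. Gene counts do not separate cut from uncut XBP1 message, and protein was not measured.

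The known promoter element of these genes, the ER stress response element, was present letter for letter in most of the members. RefSeq promoter windows (GRCh38.p14, 250 bases before to 50 after the start site) were found for 10 of 10 members and were searched on both strands. The type I element is CCAAT, then 9 bases of any kind, then CCACG. It stood in the windows of 5 of 10 members, HSPA5, HSP90B1, CALR, CANX and XBP1, against 0.092% of the 27167 genes with a window. The type II element, ATTGG, 1 base, then CCACG, stood in HERPUD1 and SDF2L1, against 0.0699% of genes. The members were chosen as genes of this response and the element is known from such genes, so these contrasts are descriptions. The members themselves are counted among the 27167 genes. The matches are shown because they are what the promoters of the members share. They are given in the direction of transcription, 5′ to 3′, with the blocks of the element in capitals. A match on the opposite strand reads CGTGG first and ATTGG second for type I, and CGTGG then CCAAT for type II.
HSPA5, type I, 71 to 43 bases before the start: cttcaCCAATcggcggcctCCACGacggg
XBP1, type I, 57 to 29 bases before the start: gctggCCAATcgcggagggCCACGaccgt
CANX, type I, 156 to 128 bases before the start: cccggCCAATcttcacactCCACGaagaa
HSP90B1, type I, 199 to 171 bases before the start: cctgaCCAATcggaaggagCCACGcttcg
HSP90B1, type I on the opposite strand, 94 to 66 bases before the start: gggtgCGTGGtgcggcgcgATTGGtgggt
CALR, type I on the opposite strand, 230 to 202 bases before the start: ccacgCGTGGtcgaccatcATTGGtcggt
HERPUD1, type II, 122 to 102 bases before the start: cgccgATTGGgCCACGttggg
SDF2L1, type II on the opposite strand, 193 to 173 bases before the start: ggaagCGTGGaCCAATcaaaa

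The stretches lie at chr9:125241386-125241414 (HSPA5, minus strand), chr22:28800598-28800626 (XBP1, minus strand), chr5:179698773-179698801 (CANX, plus strand), chr12:103930211-103930239 and chr12:103930316-103930344 (HSP90B1, plus strand), chr19:12938379-12938407 (CALR, plus strand), chr16:56932020-56932040 (HERPUD1, plus strand) and chr22:21642109-21642129 (SDF2L1, plus strand). Those of HSPA5, XBP1, CALR, HERPUD1 and SDF2L1 overlap no exon in GENCODE v29. Those of CANX and HSP90B1 overlap exons of longer transcripts of the same genes, and the HSP90B1 stretch farther from the start also overlaps an exon of TTC41P on the other strand. CANX has 4 windows and the stretch is counted from the start of the first listed one. With 1 mismatch allowed in the second block, a choice made after the letters had been seen, HERPUD1 and SDF2L1 also held a type I element, making 7 of 10 members against 1.28% of genes. PDIA4, DNAJB9 and DNAJC3 held no type I element in these windows even then.

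HSPA5 is shown over the whole stretch before its start, since it is the member that differed most between the groups. Capitals mark CCAAT and CCACG and their reverse complements in the 250 bases at chr9:125241344-125241593 (minus strand).
HSPA5: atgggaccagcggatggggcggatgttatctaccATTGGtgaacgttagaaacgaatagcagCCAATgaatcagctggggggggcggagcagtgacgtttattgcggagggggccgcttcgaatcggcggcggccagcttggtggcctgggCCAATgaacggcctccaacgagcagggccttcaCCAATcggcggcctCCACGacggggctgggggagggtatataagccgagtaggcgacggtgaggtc

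The blocks CCAAT and CCACG alone are common, in 39.8% and 42.1% of genes, and each was found in all 10 members. The core TGACGTG of the element bound by XBP1 was in 0 of 10 members and 2.4% of genes. The E-box CACGTG, the site that MYC is known to bind, can share the letters CACG with CCACG. It was in 4 of 10 members, HSP90B1, CANX, DNAJB9 and HERPUD1, against 8.74% of genes. That of CANX was in the last listed of its 4 windows, 31 to 36 bases after that start, and not in the first listed. A gene with several windows has more chances of a match. DNAJB9, the member that was called in no comparison with TMM scaling, holds a pair of E-boxes (in capitals) at chr7:108569801-108569830 (plus strand), 73 to 44 bases before its start and within an exon of a longer DNAJB9 transcript in GENCODE v29.
DNAJB9: CACGTGcgcgtagggcgccgggatCACGTG
A match of letters describes the window and does not show that a factor binds there.

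**Figure D1:**
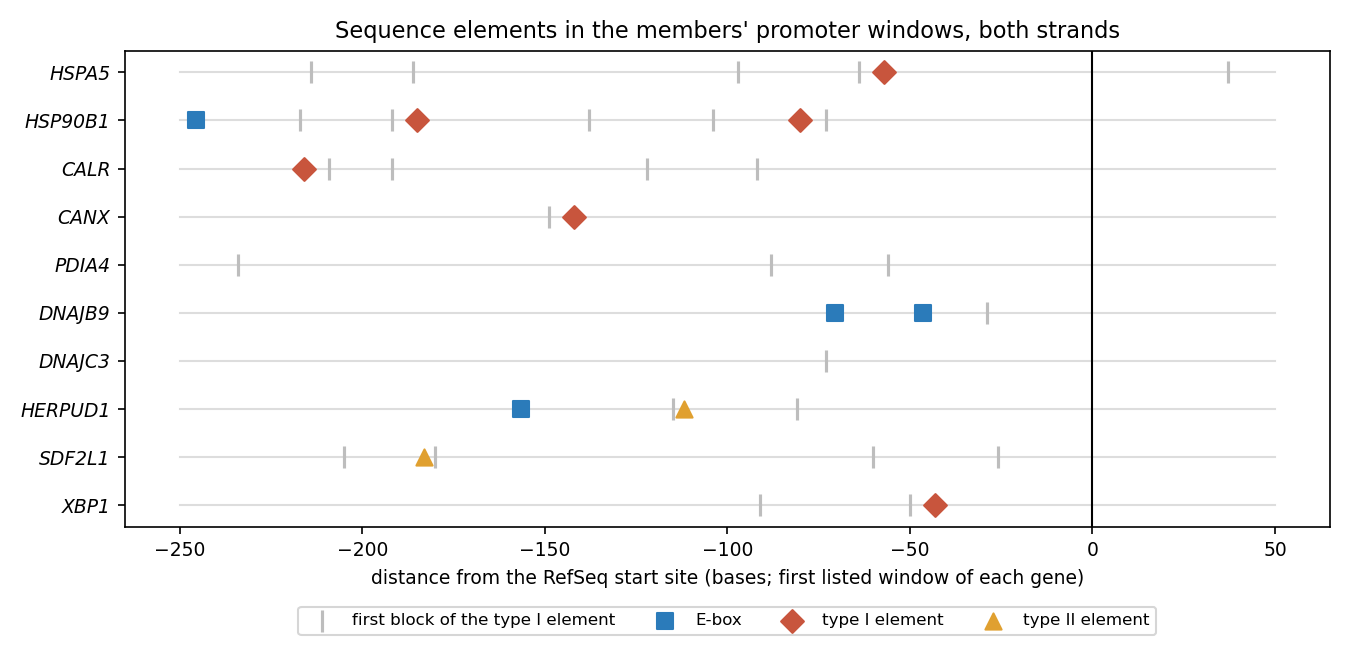
Position of sequence elements in the first listed RefSeq promoter window of each member, as distance from the start site in bases, on both strands. Diamonds are type I elements, triangles type II elements, squares E-boxes and ticks the first block of the type I element; the type I element of HSPA5 and of XBP1 lies closest to the start.

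Libraries held 42134302 to 59688062 counts, and a count of 0 would allow a level of up to 3 counts, or 0.0503 to 0.0712 CPM (counts per 1000000). Every member had at least 806 counts in every library. Levels below are CPM scaled by TMM factors, which correct for differences in library composition, and an adjusted p is from edgeR's quasi-likelihood test over 15309 genes, with a gene called at an adjusted p under 0.05. DHX15 stood at 284, 278 and 278 CPM in shControl, 182, 162 and 155.5 in shDHX15 and 197, 196 and 192 in shDHX15_MYC, so that every hairpin library was below every control library. DHX15 was also called higher in shDHX15_MYC than in shDHX15 (log2 fold change 0.23, edgeR adjusted p = 1.24e-04). Those groups thus differ in DHX15 as well as in MYC, and effects of the 2 cannot be told apart there. MYC stood at 109 to 110.0 CPM in shControl, 84.3 to 91.3 in shDHX15 and 6922 to 7197 in shDHX15_MYC, far beyond a return to the control level. Replicate 1 of shDHX15 stood apart from the other libraries of its group, with 17.1 to 18.03 chi-square units per degree of freedom against them, where the other two differed by 4.45. Mitochondrial genes took 3.67 to 3.99% of counts in shControl and shDHX15 and 6.59 to 6.66% in shDHX15_MYC.

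Markers of the labelled T lineage were present in all groups. Of 18 T-lineage genes, 16 in shControl and shDHX15 and 14 in shDHX15_MYC had a mean over 10 CPM, here by total counts. Their summed level was 4803 to 4898 CPM in shControl, 4006 to 4253 in shDHX15 and 2716 to 2748 in shDHX15_MYC. Plasma cell and B-cell markers, which would come with a large ER, summed to 324 to 328, 268 to 282 and 165 to 169.8 CPM over 9 genes, with TNFRSF17 at 0 in every shControl and shDHX15 library. Of that sum MZB1, a partner of HSP90B1 in the ER, made up 279, 230.3 and 23.6 CPM. Of the 6 genes of that list that were tested, 5 were called higher with MYC against shDHX15 and MZB1 alone lower. Over all genes tested 42.1% were called higher and 42.6% lower there. SDC1 went from 2.31 to 18.8 CPM, CD79A from 36.3 to 111 and PRDM1 from 4.85 to 12.1. Over 6 genes, myeloid markers summed to 0.434 to 0.803, 0.222 to 0.678 and 5.05 to 6.005 CPM, with CSF1R at 0 in shDHX15. Over 11 genes, markers of adherent and packaging cells summed to 27.6 to 28.6, 21.5 to 23.6 and 55.7 to 57.2 CPM, with COL1A2 at 0 in shControl. In shDHX15_MYC against shDHX15, 17 of 18 T-lineage genes were called lower and 0 higher. Of the genes tested, 3 of 3 myeloid and 6 of 8 adherent and packaging markers were called higher, and 0 lower. These lists and the mitochondrial share moved with the groups, and their part in the results below was not tested. In bulk RNA, fewer cells that express a gene and less of its RNA per cell cannot be told apart.

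Together the members' share of all counts went from 0.181% ± 0.000614 in shControl to 0.211% ± 0.00172 in shDHX15 and 0.333% ± 0.00281 in shDHX15_MYC (SD, n = 3). Per kilobase of exon, CALR was the most abundant in shControl at 363 ± 2.37 CPM per kb, followed by CANX at 107 ± 0.943, HSP90B1 at 100.3 ± 0.664, PDIA4 at 52.2 ± 0.570 and HSPA5 at 43.5 ± 0.521 (SD, n = 3). The lower members were SDF2L1 at 31.4 ± 1.02 CPM per kb, XBP1 at 25.2 ± 0.353, HERPUD1 at 14.5 ± 0.458, DNAJB9 at 7.18 ± 0.506 and DNAJC3 at 6.51 ± 0.156. In shDHX15_MYC the order at the top was CALR at 471 ± 8.13, HSP90B1 at 195 ± 2.09, CANX at 143 ± 1.61 and HSPA5 at 127 ± 2.42 CPM per kb, so that HSPA5 had passed PDIA4 at 58.95 ± 1.18. XBP1 and SDF2L1, at 33.2 ± 0.896 and 32.6 ± 1.42 CPM per kb there, did not differ beyond their spread. Sequence shared with other genes was small, with 0 to 2.94% of 100-base windows of a member's transcripts found elsewhere. CALR and DNAJB9 share 14.2% and 6.74% of their exon bases with genes annotated on the other strand, AC092069.1 for CALR and THAP5 and PNPLA8 for DNAJB9; HSP90B1 shares 4.57% with the microRNA gene MIR3652 on its own strand. Whether strand was used in counting is not given, so reads from those stretches cannot be told apart.

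After the DHX15 hairpin alone the members did not move as a group. Against shControl 4 of 10 were called higher and 2 of 10 lower, where 22% of all genes tested were called higher and 23% lower. With total-count scaling 5 members were higher and 1 lower, where 4576 of all genes were higher and 2568 lower. With TMM scaling, 28.9% of the 8888 better expressed genes were called higher and 29% lower (mean log2 CPM 4 or higher, a range that holds every member). The members' median log2 fold change was 0.04, beside -0.005 over all genes tested, with a range from -0.34 to 0.33. The glycoprotein chaperone CALR and the HSP90 homologue HSP90B1 rose, the co-chaperone SDF2L1 and the isomerase PDIA4 fell, and HSPA5 was not called.

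HSPA5, the central chaperone of the group, stood at 169, 168 and 172 CPM in the control libraries and at 168, 172 and 169.8 in the knockdown libraries. The ranges overlapped and the difference was 0.001 on the log2 scale (SE 0.0293, 95% confidence interval -0.0609 to 0.0631, edgeR adjusted p = 0.98). With total-count scaling the HSPA5 difference was 0.07 and not called either (edgeR adjusted p = 0.0614). CANX, the membrane-bound lectin chaperone, was not called either, at 469.5 to 477 CPM in shControl and 468 to 485 in shDHX15 (0.003, interval -0.0539 to 0.0599, adjusted p = 0.941 by edgeR). DNAJB9 overlapped as well, with 17.9, 20.4 and 20.2 CPM in control and 22.7, 19.7 and 18.1 in knockdown libraries (0.05, interval -0.123 to 0.214, edgeR adjusted p = 0.676).

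HSP90B1 went from 287, 289.7 and 286 CPM to 376, 357 and 349.8, with every knockdown library above every control library (log2 fold change 0.33, SE 0.0306, adjusted p = 2.25e-07, 1.26-fold). CALR, the soluble lectin chaperone, went from 685, 693 and 692 CPM to 823, 861 and 848 (0.29, SE 0.0271, edgeR adjusted p = 2.28e-07). Thus of the paired lectin chaperones CALR rose while CANX was not called, and the count ratio of CALR to CANX within a library, which no scaling alters, was 1.46 ± 0.0195 in shControl and 1.78 ± 0.0683 in shDHX15 (SD, n = 3). HERPUD1 was at 41.6, 42.3 and 44.2 CPM in control and 49.2, 50.3 and 48.5 in knockdown libraries (0.21, SE 0.0444, edgeR adjusted p = 9.61e-04). DNAJC3 was at 36.3, 35.6 and 37.3 CPM and then at 42.2, 41.8 and 37.9, its last library close to the control range (0.16, SE 0.0498, edgeR adjusted p = 0.0150). DNAJC3 was no longer called when replicate 2 of shControl (edgeR adjusted p = 0.0597) or replicate 2 of shDHX15 (edgeR adjusted p = 0.0641) was left out.

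SDF2L1, which works with HSPA5 and DNAJB11 on newly made proteins, went down from 26.3, 27.02 and 28.1 CPM to 20.6, 21.7 and 21.8 (log2 fold change -0.34, SE 0.0573, edgeR adjusted p = 1.13e-04). PDIA4 went from 153, 149.7 and 152 CPM to 130.1, 142 and 139 (-0.15, SE 0.0355, edgeR adjusted p = 0.00292). With total-count scaling the PDIA4 difference was -0.08 and not called (edgeR adjusted p = 0.0707), and CANX was called higher at 0.07 (adjusted p = 0.0440). XBP1 was the least even member, at 50.6, 51.4 and 51.99 CPM in the control libraries and 42.6, 54.8 and 59.2 in the knockdown libraries. Its replicate 1 lay below the control range and the other two above it, and no difference was called (0.03, SE 0.0802, interval -0.145 to 0.195, edgeR adjusted p = 0.827). Replicate 1 is the shDHX15 library that stood apart over all genes; without it XBP1 was called higher by 0.15 (edgeR adjusted p = 0.00415).

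**Figure D2:**
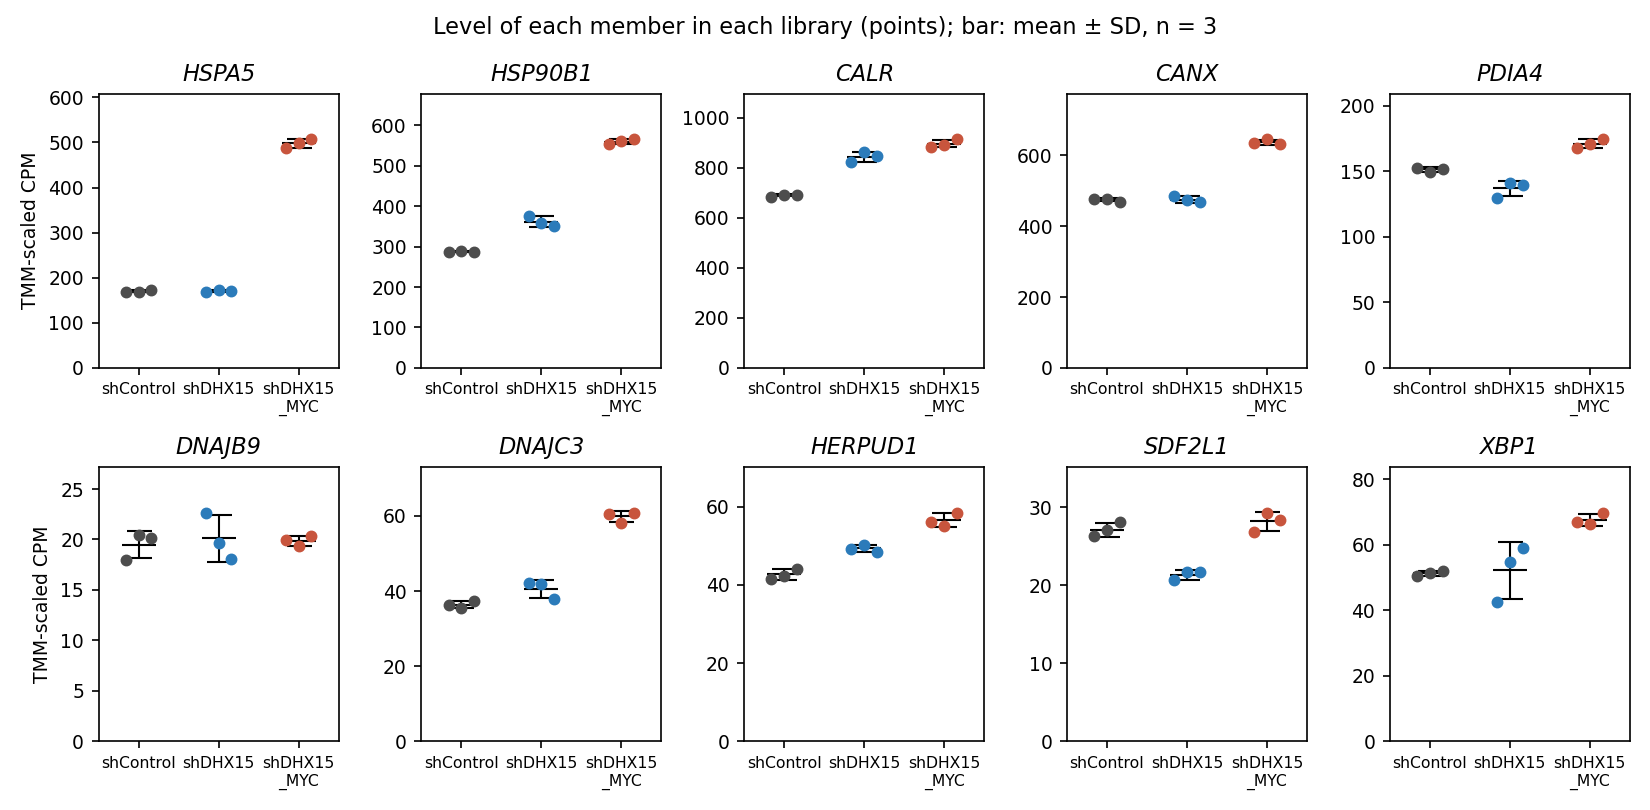
TMM-scaled CPM of each member in each library (points, 3 per group), with the mean and SD as bars and axes from 0. HSPA5 lies at 168 to 172 CPM in shControl and shDHX15 and stands at 488 to 507 CPM in shDHX15_MYC, DNAJB9 overlaps between all groups, and XBP1 is spread out in shDHX15.

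With MYC added on the hairpin background nearly all members rose. Against shDHX15, 9 of 10 were called higher and 0 lower, where 42.1% of all genes tested were called higher and 42.6% lower. Among the better expressed genes the shares were 32.9% and 55.2%. The members' median log2 fold change was 0.39, beside 0.006 over all genes tested and -0.21 over the better expressed genes. The sizes were unequal, from 2.93-fold for HSPA5 to 1.06-fold for CALR, with DNAJB9 not called. Because the members were chosen with earlier results of these data known, their count is a description. This comparison shares its shDHX15 libraries with the one above.

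HSPA5 stood at 488, 499 and 507 CPM in the MYC libraries against 168 to 172 in the knockdown libraries, and no library came near the other group. Its log2 fold change was 1.55 (SE 0.0294, edgeR adjusted p = 8.26e-18). Of the 8888 better expressed genes 146 (1.64%) had a larger rise. HSP90B1 stood at 553, 560.3 and 565 CPM (log2 fold change 0.63, SE 0.0305, edgeR adjusted p = 1.81e-12, 1.55-fold), on top of its higher level in shDHX15. DNAJC3, a co-chaperone of HSPA5, stood at 60.6, 58.3 and 60.9 CPM (0.56, SE 0.0486, adjusted p = 6.99e-09 by edgeR, 1.47-fold).

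CANX reached 634, 646 and 632 CPM (log2 fold change 0.42, SE 0.0269, edgeR adjusted p = 8.90e-11). CALR reached 884, 892 and 914 CPM, just above its highest knockdown library of 861 (0.09, SE 0.027, edgeR adjusted p = 0.00620). With total-count scaling CALR was at 0.36 after the hairpin and 0.29 with MYC. Its second step was thus the smaller with either scaling, but by less with total counts. The count ratio of CALR to CANX was 1.41 ± 0.0335 with MYC (SD, n = 3), with every library below those of shDHX15 and a range that overlapped shControl.

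SDF2L1 stood at 26.9, 29.3 and 28.4 CPM with MYC (log2 fold change 0.40, SE 0.057, edgeR adjusted p = 4.66e-06), a range that overlapped the control libraries. PDIA4 stood at 168, 171 and 175 CPM (0.32, SE 0.0354, edgeR adjusted p = 1.76e-07). XBP1 stood at 67.04, 66.4 and 69.8 CPM, each above the highest knockdown library at 59.2 (0.38, SE 0.0791, edgeR adjusted p = 2.92e-04). HERPUD1 stood at 56.05, 55.02 and 58.5 CPM (0.19, SE 0.0436, edgeR adjusted p = 5.20e-04). DNAJB9 stood at 19.96, 19.3 and 20.3 CPM, inside the range of its knockdown libraries (-0.02, interval -0.185 to 0.15, edgeR adjusted p = 0.839). The scaling bears on these sizes: total counts in place of TMM factors moved the median of all genes by 0.20 on the log2 scale (from 0.006 to 0.204), put DNAJB9 at 0.18 (edgeR adjusted p = 0.0429) and called all 10 members higher. All genes then split into 7679 higher and 5348 lower.

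Ratios within a library do not depend on scaling, and they set HSPA5 apart from its partners. The count ratio of HSPA5 to CALR went from 0.246 ± 0.00295 in shControl to 0.202 ± 0.00241 in shDHX15 and 0.556 ± 0.00346 in shDHX15_MYC, and that of HSPA5 to HSP90B1 was 0.591 ± 0.0104, 0.472 ± 0.0213 and 0.890 ± 0.0074 (SD, n = 3). The co-chaperone messages fell behind HSPA5 with MYC. HSPA5 is the member that rose most, and 98.3% of the 8888 better expressed genes had a smaller log2 fold change. Such a fall is thus not particular to co-chaperones. DNAJB9 had 11.5 ± 0.792% of the HSPA5 count in shControl, 11.8 ± 1.46% in shDHX15 and 3.99 ± 0.106% with MYC. DNAJC3 had 21.4 ± 0.271%, 23.9 ± 1.39% and 12.03 ± 0.374% of it, and SDF2L1 15.95 ± 0.381%, 12.6 ± 0.275% and 5.65 ± 0.191% (SD, n = 3). In all 3 of these ratios every MYC library lay below every other library. DNAJC3 and SDF2L1 were themselves higher with MYC and DNAJB9 was not called, so these falls restate the rise of HSPA5. With 3 libraries against 3, an exact permutation test cannot go below 0.10, and none was run on the ratios.

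**Figure D3:**
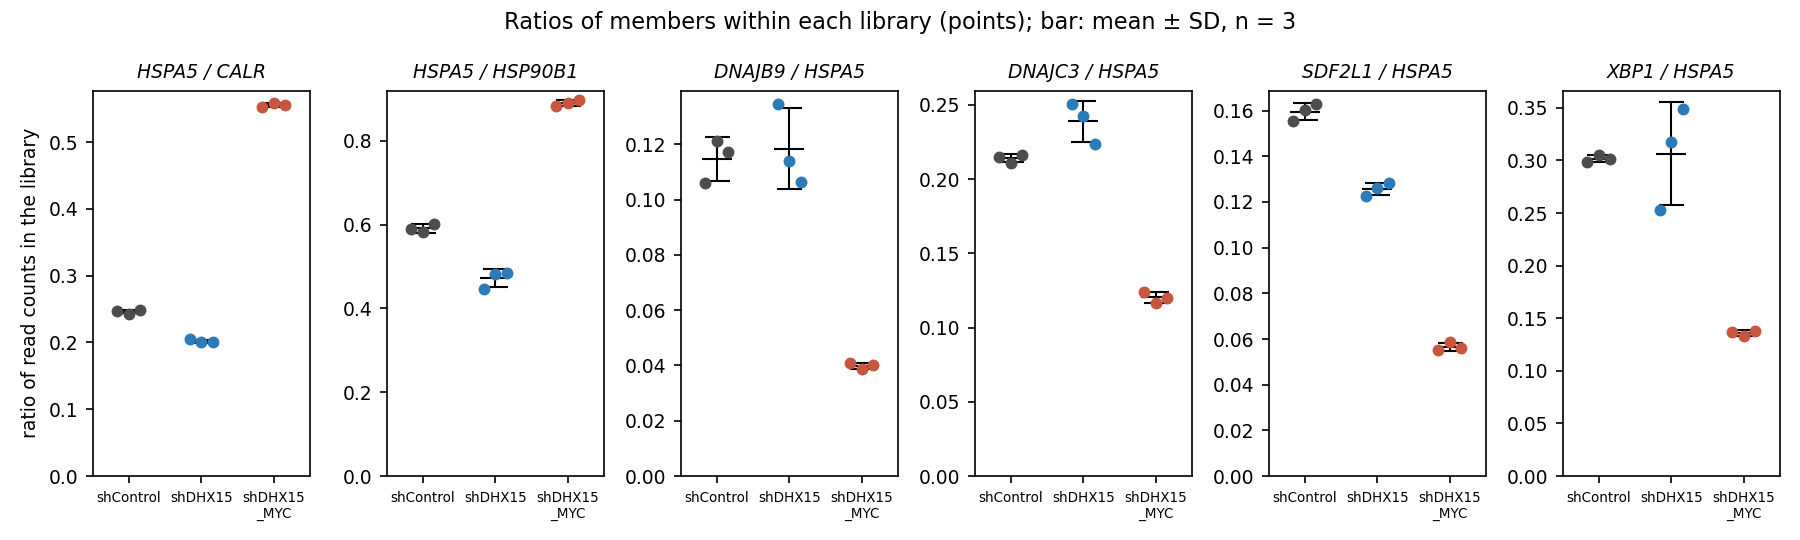
Ratio of read counts of one member to another within each library (points, 3 per group), with the mean and SD as bars and axes from 0. HSPA5 gains on CALR and HSP90B1 in shDHX15_MYC, and DNAJB9, DNAJC3, SDF2L1 and XBP1 each stand lower against HSPA5 there than in any library of the other groups.

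Set directly against shControl, the MYC libraries held more of 8 of 10 members and less of 0, where 42% of all genes tested were called higher and 42.5% lower (33.3% and 55% among the better expressed genes). The median log2 fold change of the members was 0.40, beside 0.02 over all genes tested. HSPA5 was 2.93-fold above shControl (log2 fold change 1.55, SE 0.0295, edgeR adjusted p = 8.12e-18), HSP90B1 1.95-fold (0.96, SE 0.0307, adjusted p = 6.79e-15) and DNAJC3 1.65-fold. HERPUD1 and XBP1 were each higher by 0.40 on the log2 scale, CANX by 0.43, CALR by 0.38 and PDIA4 by 0.17. SDF2L1 and DNAJB9 were not called, at 0.05 (interval -0.0654 to 0.174) and 0.03 (interval -0.141 to 0.197) on the log2 scale. With total-count scaling these became 0.32 and 0.29 and were called (edgeR adjusted p = 4.90e-05 and 0.00276), so that all 10 members were higher, while the median of all genes moved from 0.02 to 0.28 and all genes split into 8128 higher and 4893 lower.

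**Figure D4:**
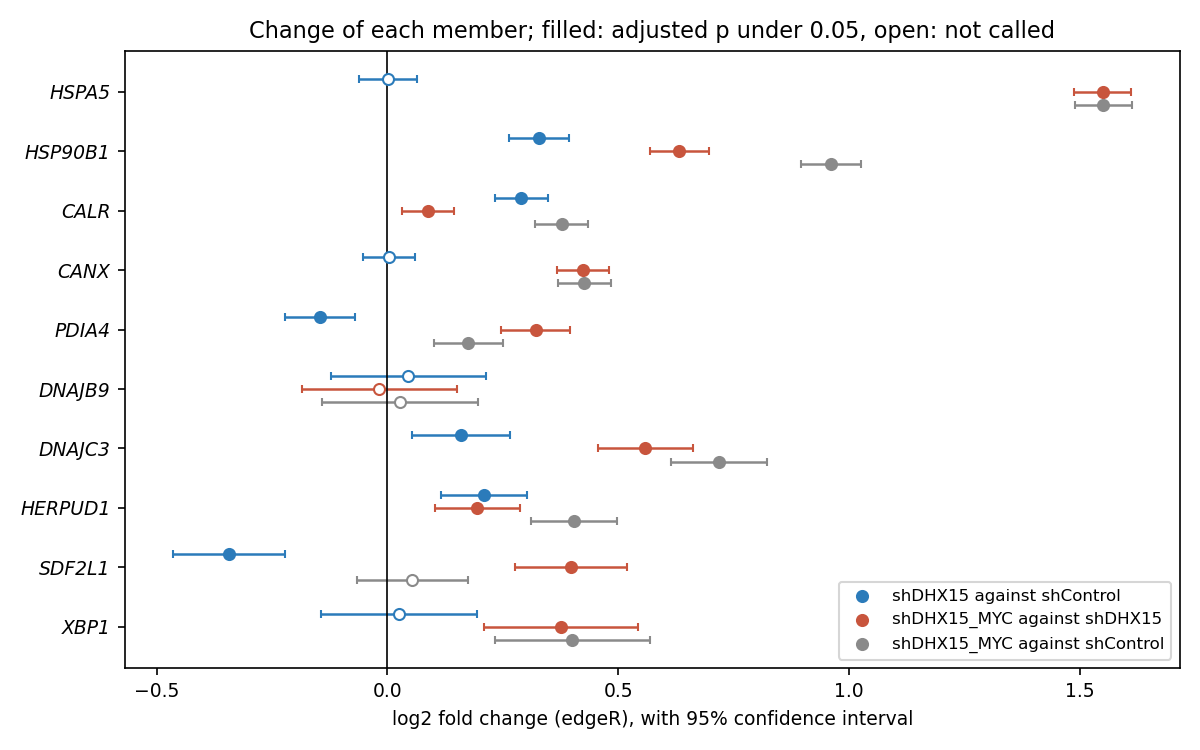
Log2 fold change of each member with its 95% confidence interval in the 3 comparisons, by edgeR's quasi-likelihood model; filled points have an adjusted p under 0.05. HSPA5 lies at 1.55 in both comparisons with shDHX15_MYC and at 0.001 after the hairpin alone, and DNAJB9 spans 0 in all 3.

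The other genes of the unfolded protein response were read from 5 lists that hold 120 genes, all of which were tested; ERO1A stands in the folding list and in the PERK and ATF4 list. After the hairpin alone 29 of the 120 were called higher and 49 lower, or 24.2% and 40.8% (41 and 33 with total-count scaling), with a median log2 fold change of -0.04. Over all genes tested 22% were called higher and 23% lower, and among the better expressed genes 28.9% and 29%, so the share of higher calls was near the background. The lower calls were most frequent among the 33 genes of ER translocation and signal peptide processing, with 20 lower and 5 higher (16 and 10 with total-count scaling; median -0.19). SSR4 and SSR2, subunits of the translocon-associated complex, went from 137 to 98.03 CPM and from 228 to 178, and OST4, a small subunit of the glycosyltransferase, from 91.98 to 67.99. STT3B, a catalytic subunit of that enzyme, went the other way, from 352 to 475 CPM (log2 fold change 0.43, edgeR adjusted p = 3.74e-09), and SRP54 and SEC62 rose by 0.28 and 0.25.

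Of 40 ER folding enzymes and co-chaperones 15 were lower and 10 higher after the hairpin (10 and 13 with total-count scaling). The prolyl isomerase PPIB, the thioredoxin-like TXNDC5 and TXNDC12 fell by 0.60, 0.45 and 0.36 on the log2 scale, and RCN1, the oxidase ERO1B and the isomerase FKBP14 rose by 0.38, 0.38 and 0.31. Of 28 genes of ER-associated degradation 10 were lower and 6 higher (5 and 9 with total-count scaling). The ubiquitin ligase SYVN1 went from 251 to 199 CPM, and DERL3 and the mannosidase-like EDEM3 rose by 0.56 and 0.35. SELENOK, counted under its older name SELK, and RNF139 fell by 0.27 and 0.22, and HERPUD2 rose by 0.27. The RNF139 call was lost without replicate 1 or 3 of shControl or replicate 2 or 3 of shDHX15 (edgeR adjusted p = 0.0628 to 0.0821), with total-count scaling (0.0866) and with only the 6 libraries compared (0.0541). Of 14 genes of the PERK and ATF4 arm 6 were higher and 3 lower (7 and 2 with total-count scaling), with SESN2, CEBPG and DDIT3 higher by 0.28, 0.25 and 0.20 and ATF4 itself lower, from 499 to 438 CPM (edgeR adjusted p = 2.75e-05), as was ASNS by 0.17. The DDIT3 call was lost without replicate 1 or 2 of shControl or replicate 1 of shDHX15 (edgeR adjusted p = 0.0746 to 0.111), and that of ASNS without replicate 3 of shControl or replicates 2 or 3 of shDHX15 (0.0512 to 0.0661), with total-count scaling (0.126) and with only the 6 libraries compared (0.0581). Of the 6 sensors and activating proteases 2 were higher and 1 lower (3 and 0 with total-count scaling). MBTPS2 and EIF2AK3 were called at 0.17 and 0.15 and MBTPS1 at -0.09. Each of these calls was lost without replicate 3 of shControl (edgeR adjusted p = 0.177, 0.0823 and 0.0701) and without replicate 3 of shDHX15 (0.0888, 0.0656 and 0.0776), and some also without other libraries. MBTPS1 was also not called with total-count scaling (-0.02, edgeR adjusted p = 0.548) or with only the 6 libraries compared (0.0938), nor MBTPS2 with DESeq2 (0.0542).

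With MYC added, the lists went apart. Of the 120 genes 54 were called higher and 55 lower against shDHX15, or 45% and 45.8% (65 and 39 with total-count scaling), with a median log2 fold change of 0.01. These shares were near those over all genes tested, 42.1% higher and 42.6% lower. Among the better expressed genes, a range that holds most of the 120, the shares were 32.9% and 55.2%. Beside those, the 120 had more higher and fewer lower calls. The 14 genes of the PERK and ATF4 arm were mostly higher, with 12 higher and 2 lower (13 and 1 with total-count scaling; median 1.33). CEBPB went from 4.99 to 25.9 CPM, the phosphatase subunit PPP1R15A from 58.9 to 279.8 and the pseudokinase TRIB3 from 36.6 to 106. ERO1A, also an ER oxidase, went from 137 to 65.9 CPM, and PPP1R15B was called lower at -0.07 (edgeR adjusted p = 0.0450) but higher at 0.13 with total-count scaling (7.35e-04). The PPP1R15B call was lost with RLE factors (edgeR adjusted p = 0.368), with DESeq2 (0.368), with only the 6 libraries compared (0.138) and without replicate 2 of shDHX15 or replicates 1 or 2 of shDHX15_MYC (0.0714 to 0.170).

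Of the sensors and activating proteases 5 of 6 were lower with MYC and 1 higher (4 and 1 with total-count scaling), where 55.2% of the better expressed genes were called lower. The protease MBTPS1, which cuts ATF6, went from 211 to 98.8 CPM (log2 fold change -1.10, SE 0.0304, edgeR adjusted p = 9.93e-16), ATF6B from 108 to 51.7 and ATF6 from 90.8 to 67.6. MBTPS2, the second protease, rose by 0.47. Among 40 folding enzymes and co-chaperones 16 were higher and 16 lower (24 and 12 with total-count scaling). The largest rises among those with a mean log2 CPM of 3 or more were of HSPA5 partners: DNAJB11 went from 56.8 to 107 CPM, the exchange factor HYOU1 from 147 to 270.5 and the reductase DNAJC10 from 35.7 to 65.5. SIL1, another exchange factor of HSPA5, went from 23.02 to 10.5 CPM, and ERP29 from 186 to 86.6.

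Degradation genes were lower in 17 and higher in 11 of 28 with MYC (15 and 11 with total-count scaling). For this and the next list, the shares over all genes tested were 42.6% lower and 42.1% higher. Among the better expressed genes they were 55.2% and 32.9%. SELENOS, counted under its older name VIMP, went from 17.4 to 41.2 CPM and AUP1 from 132 to 215, and UBE2J2 rose by 0.54. HERPUD2, MAN1B1 and the deglycosylase NGLY1 fell by 1.07, 1.07 and 0.97 on the log2 scale. Of 33 translocation genes 16 were lower and 14 higher (8 and 16 with total-count scaling). The channel subunit SEC61A1 went from 204 to 336 CPM, SRPRB from 28.1 to 61.0 and the signal peptidase subunit SEC11C from 16.1 to 40.4, while its partner SPCS2 went from 75.1 to 27.4 CPM, OST4 from 67.99 to 27.3 and STT3B from 475 to 228. Against shControl 49 of the 120 were higher and 54 lower, or 40.8% and 45% (71 and 39 genes with total-count scaling). Over all genes tested 42% were higher and 42.5% lower there, and among the better expressed genes 33.3% and 55%. DNAJB11 stood at 107 against 53.3 CPM and OST4 at 27.3 against 91.98. ERN1, which cuts XBP1, stood at 97.6 against 135 CPM, while XBP1 itself was higher. These values share their MYC libraries with the ones before.

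**Figure D5:**
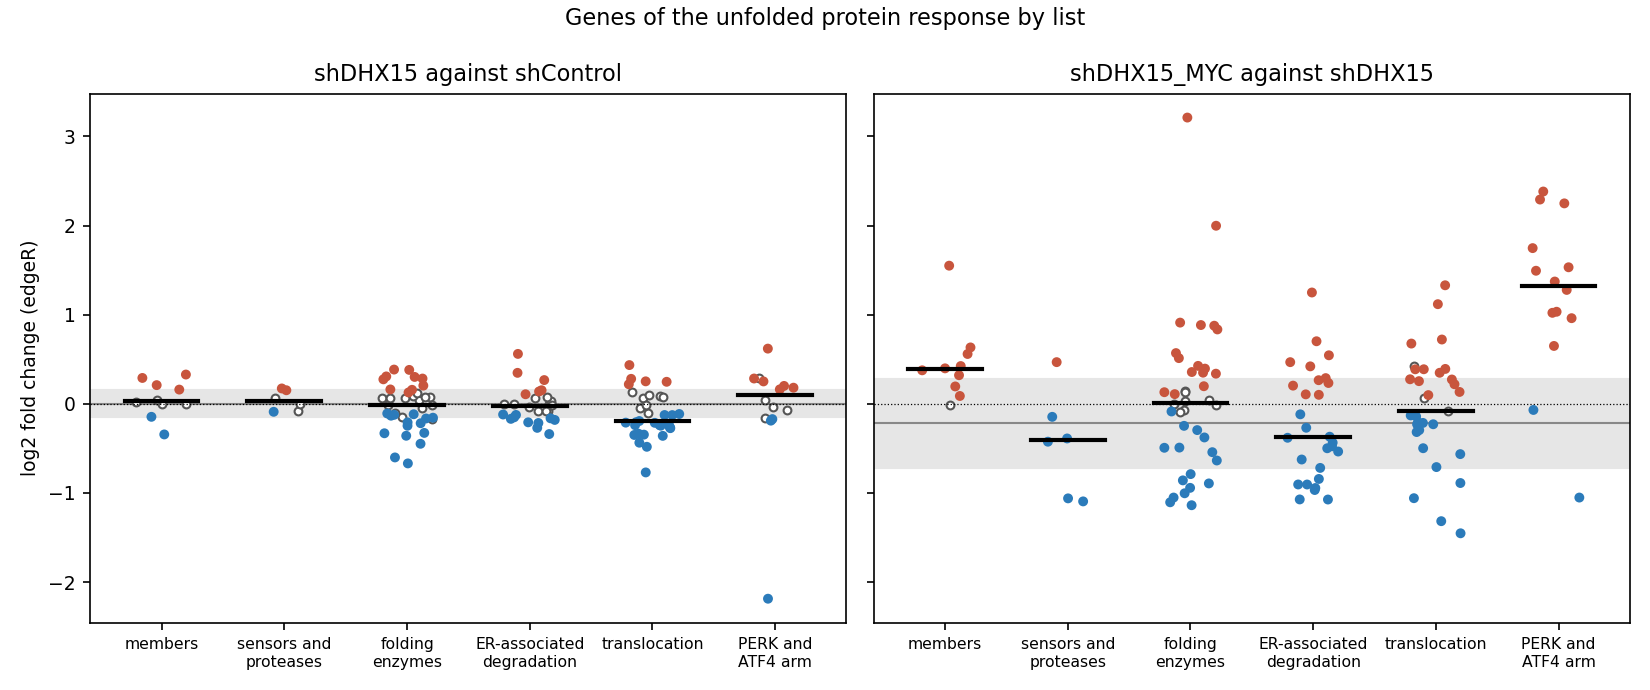
Log2 fold change of every gene in the members' list and the 5 wider lists, in shDHX15 against shControl (left) and shDHX15_MYC against shDHX15 (right). Filled points are called at an adjusted p under 0.05, open points are not, black bars are list medians, and the grey line and band are the median and middle range (between quartiles) of the better expressed genes. With MYC the medians are 0.39 for the members, 1.33 for the PERK and ATF4 arm and -0.41 for the sensors.

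Outside the members, 12 genes with a type I element were matched by symbol and tested; with MYC 9 were called lower, 2 higher and 1 was not called. Over all genes tested 42.6% were called lower and 42.1% higher, and among the better expressed genes 55.2% and 32.9%. The 2 higher genes, GLRA2 and SYNPO, were barely expressed, at a mean log2 CPM of -0.63 and 0.01. With total-count scaling the 12 were 6 lower, 3 higher and 3 not called. Of the members, the 5 with a type I element and 4 of the 5 without one were called higher. The 12 genes outside the members include known genes of the response, of which 4 that were called lower are named below, chosen with their values known. The 1 gene not called was FICD, at -0.16 (edgeR adjusted p = 0.0608), and at 0.04 with total-count scaling. CRELD2, an ER protein with disulfide chemistry, rose after the hairpin by 0.30 and fell with MYC by 0.86 on the log2 scale, from 70.1 to 38.6 CPM (edgeR adjusted p = 7.84e-09). ERO1B went from 19.4 to 9.69 CPM with MYC, and SERP1 and PDIA6 were called at -0.21 and -0.09 (-0.02, not called, and 0.11 with total-count scaling). Among 12 tested genes with a type II element outside the members, 5 were higher and 6 lower with MYC (6 and 5 with total-count scaling), HYOU1 being among the higher at 0.88. Whether the element bears on any of these differences was not tested.

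Genes with the most similar pair of changes were sought among 6628 genes whose mean log2 CPM was 5 or higher, by the distance between the log2 fold changes after the hairpin and with MYC (3 groups of 3 libraries), which is a description. Nearest to HSPA5 were WDR43, a nucleolar protein of ribosome assembly (-0.01 and 1.57), ZNF274 (0.01 and 1.52) and the cell cycle phosphatase CDC25A (0.02 and 1.50), at distances of 0.0224 to 0.0532. Nearest to XBP1 were WAS (0.02 and 0.39), MRPL13 (0.01 and 0.37) and CACYBP (0.04 and 0.37), at distances of 0.0131 to 0.0157.

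In GENCODE v29 (GRCh38) the members lie on 8 chromosomes. HSPA5 is at chr9:125234853-125241330 (minus strand), HSP90B1 at chr12:103930107-103953645 (plus), CALR at chr19:12938578-12944489 (plus), CANX at chr5:179678628-179730925 (plus) and DNAJC3 at chr13:95677139-95794989 (plus). PDIA4 at chr7:149003062-149028641 (minus) and DNAJB9 at chr7:108569568-108574850 (plus) share a chromosome, as do SDF2L1 at chr22:21642261-21644298 (plus) and XBP1 at chr22:28794555-28800597 (minus), and HERPUD1 is at chr16:56932048-56944863 (plus).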

How the data were processed

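The authors deposited 1 table of read counts per gene, whole numbers with no scaling, for 17637 genes and 9 libraries. Per the labels' protocols, poly(A) libraries were read as 150 bp pairs; per the submitters' processing notes, FastQC 0.11.9, HISAT2 2.2.1, DESeq2 1.32.0 and the build hg38 were used. Counting program, strand setting, gene models: not given in the sources used here. Columns were joined to samples by name: GFP hairpin columns as shControl, hairpin 1 columns as shDHX15, and those with MYC as shDHX15_MYC.

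Counts were fitted in R 4.3.3 with edgeR 4.0.16 (filterByExpr, TMM factors, quasi-likelihood fit of all 9 libraries, each group having its own mean, 2-sided tests, Benjamini-Hochberg adjustment over 15309 genes, called under 0.05). The steps were tested on simulated counts in which few genes were changed, unlike the comparisons with MYC here. That simulation therefore does not bear on the choice of scaling. SE is of the log2 fold change, and SD is over 3 libraries. Deviations from group means correlated at -0.0941 to 0.0940 in same-numbered libraries and -0.0916 to 0.0986 in others. Between shControl and shDHX15 the same-numbered values were 0.0940, 0.0880 and 0.00996, and the others -0.0916 to 0.0493. No label pairs libraries, so they were not paired, and a replicate block was an alternative. The 10 members and all lists were chosen with earlier results of these data known. All members are named; from each wider list the 3 called genes with the largest rise and fall, among those with mean log2 CPM 3 or higher, were taken, and most of these are printed. Symbols were matched to GENCODE v29 and RefSeq GRCh38.p14, the same assembly as hg38; 3 list genes matched by an older symbol. Per-kilobase levels use the union of exons of basic protein-coding transcripts. Alternatives were total-count scaling, RLE factors, DESeq2 1.42.0, no filter, the 6 libraries compared, a replicate block and leaving out each library.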

Additional observations from a re-analysis of the deposited data

How the results depend on the processing

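Of 360 refits of single members over the 3 comparisons, 339 kept their direction and side of the threshold, 3 lost a call, 4 gained one and 14 changed sign. All 14 were of differences that were not called in the first place, and 1 of them, DNAJB9 in shDHX15_MYC against shDHX15 with total-count scaling, also gained a call. Leaving out single libraries after the hairpin gave log2 fold changes of -0.012 to 0.0111 for HSPA5 (also -0.00161 and -0.0049), -0.0108 to 0.015 for CANX (also -0.00413), -0.0452 to 0.116 for DNAJB9 (also -0.0116) and -0.072 to 0.151 for XBP1 (also -0.0161). For DNAJB9 it gave -0.0957 to 0.065 in shDHX15_MYC against shDHX15 and -0.0379 to 0.0521 against shControl. In shDHX15_MYC against shDHX15, DNAJB9 stood at 0.181 with total-count scaling, 0.0211 with RLE factors and 0.0199 with DESeq2, and PPP1R15B at 0.13 with total-count scaling. Total-count scaling left 1 member called lower after the hairpin in place of 2. Without single libraries 3 to 5 members were called higher and 2 lower after the hairpin, 9 and 0 with MYC against shDHX15, and 8 and 0 against shControl. Over all groups, correlations of same-numbered libraries and of others spanned similar ranges. With the replicate block 4 members were called higher and 2 lower after the hairpin, 9 and 0 with MYC, and 8 and 0 against shControl, as without it. The block ended the call of PPP1R15B (-0.07, edgeR adjusted p = 0.0582). Depth limits none of the members; the spread of 3 libraries does.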

Other observations

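One further gene of ER folding, chosen after its values were seen, fell steeply with MYC. MZB1, which assists HSP90B1 and is best known from antibody-secreting cells, was well expressed in this T-cell line and fell by 0.35 on the log2 scale after the hairpin (edgeR adjusted p = 1.98e-07) and by 3.49 with MYC against shDHX15 (edgeR adjusted p = 1.89e-20), while HSP90B1 itself was higher in both. By total counts its mean level went from 279 CPM in shControl to 230.3 in shDHX15 and 23.6 in shDHX15_MYC, and with total-count scaling MZB1 fell by 0.28 after the hairpin and fell by 3.29 with MYC.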
